A study of Mus musculus with 12 samples.

Results

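The nucleotide synthesis genes are 34 genes whose proteins make purine, pyrimidine and deoxynucleotide building blocks, recover them from breakdown products, or hold deoxynucleotide levels down. They were taken as a fixed list of symbols, and every probe set annotated to one of them, alone or among several symbols, was used. The annotation held a probe set for 33 of the 34 genes, and 81 of the 45037 probe sets tested were theirs. Impdh2, the second IMP dehydrogenase gene, was not analysed here. The annotation writes Ctps1 as Ctps.

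RNA came from B cells of the spleen, left after cells bearing CD43 were removed on beads; the stated purity was above 98%. The donors were wild type (WT) mice and EFLmDREAM transgenic mice (TgDREAM, here Tg). DREAM is a repressor that binds calcium in its normal form, and the transgene carries the form named EFLmDREAM. The sources used here do not give the strain, age or sex of the mice, or the promoter that drives the transgene. Cells of each genotype were unstimulated (day 0), or cultured for 2 days with lipopolysaccharide (LPS) at 20 µg/ml, which signals through a Toll-like receptor, and interleukin 4 (IL-4) at 10 ng/ml. There were 4 groups of 3 arrays, 1 per independent biological replicate, and this number limits the precision. No unstimulated culture was kept for the same 2 days, so the stimulation and the time in culture cannot be told apart.

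Cells build purine rings stepwise on phosphoribosyl pyrophosphate (PRPP) up to inosine monophosphate (IMP), from which AMP and GMP are made, and build the pyrimidine ring first as orotate, which becomes UMP and then CTP. Ribonucleotide reductase turns ribonucleotides into deoxynucleotides, and thymidylate synthase supplies the thymidine nucleotide that only DNA needs. Resting lymphocytes lean on salvage of ready-made bases and nucleosides. Lymphocytes that enter the cell cycle need new synthesis as well, and inherited or drug-induced blocks in IMP dehydrogenase, dihydroorotate dehydrogenase or CTP synthase 1 restrain their proliferation.

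The promoters of 4 genes are shown because Rrm2 had the largest rise with stimulation, Rrm1 encodes the partner subunit of the same enzyme, Atic was among the genes at the edge of a genotype call, and Samhd1 fell while most of the list rose. Each line gives the 250 bases before the annotated start, 5′ to 3′ on the gene's strand, from RefSeq (GRCm38.p6). Capitals mark 3 searched motifs: CCAAT, which NF-Y binds, TTCCCGC or TTGGCGC, forms of the E2F site, and CACGTG, the E-box that MYC and USF proteins bind.
Rrm2, chr12:24708004-24708253, plus strand: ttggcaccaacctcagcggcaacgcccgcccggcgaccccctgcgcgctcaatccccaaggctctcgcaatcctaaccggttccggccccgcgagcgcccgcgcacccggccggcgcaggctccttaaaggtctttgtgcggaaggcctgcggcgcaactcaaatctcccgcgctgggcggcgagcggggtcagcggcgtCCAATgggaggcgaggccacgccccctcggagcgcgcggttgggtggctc
Rrm1, chr7:102441445-102441694, plus strand: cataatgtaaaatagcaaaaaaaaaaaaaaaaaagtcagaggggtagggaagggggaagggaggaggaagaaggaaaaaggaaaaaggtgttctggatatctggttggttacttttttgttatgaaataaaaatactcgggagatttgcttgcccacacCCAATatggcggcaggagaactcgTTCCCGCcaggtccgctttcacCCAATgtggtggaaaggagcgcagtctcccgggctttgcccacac
Atic, chr1:71556906-71557155, plus strand: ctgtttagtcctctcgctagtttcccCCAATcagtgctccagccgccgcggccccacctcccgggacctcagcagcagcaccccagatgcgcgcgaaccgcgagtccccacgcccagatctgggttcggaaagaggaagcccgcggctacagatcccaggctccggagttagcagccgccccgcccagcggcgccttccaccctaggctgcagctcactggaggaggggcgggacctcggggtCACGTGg
Samhd1, chr2:157135097-157135346, minus strand: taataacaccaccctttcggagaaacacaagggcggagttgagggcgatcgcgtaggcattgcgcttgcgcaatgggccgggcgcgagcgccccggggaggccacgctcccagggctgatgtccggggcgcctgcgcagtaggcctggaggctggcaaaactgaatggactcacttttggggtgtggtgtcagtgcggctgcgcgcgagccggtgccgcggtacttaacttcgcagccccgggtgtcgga
The Rrm2 window held CCAAT with its first base at −50 from the start, and the Rrm1 window held it at −91 and −45 with TTCCCGC at −67. Atic had CCAAT at −224 and CACGTG at −7, and the Samhd1 window had none of the 3 motifs. Both strands were searched, and TTGGCGC read on the opposite strand can share bases with CCAAT. RefSeq windows that also span the first bases after the start were found for 30 of the 33 measured genes, 37 windows in all. CCAAT was in 11 of these 37 windows (29.7%, against 37.4% of 32851 windows of all genes). The E2F forms were in 6 (16.2%, against 6.81%), and CACGTG was in 6 (16.2%, against 7.15%). These are matches of letters, and binding was not measured.

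A gene was read at its brightest probe set among those annotated to it alone, and levels of different probe sets were not compared with each other. A change is a log2 difference with its SE, fitted with limma (n = 3 arrays in each group), and was called at an adjusted p under 0.05 over all 45037 probe sets. Array values are listed in the order of replicates 1, 2 and 3. The medians of the arrays were 5.97 to 6.05 on day 0 and 5.37 to 5.41 on day 2, so stimulation was tested on values quantile-normalized over the 12 arrays, and genotype within a day on the deposited values. Replicate 1 of the unstimulated wild type group stood apart in RNA quality: its actin control read 2.22 lower at the 5′ end than at the 3′ end, where the other unstimulated arrays read 0.54 to 0.67 lower. Replicate 1 of the stimulated wild type group read 1.36 lower at the 5′ end, and the other stimulated arrays 0.43 to 0.98 lower. The 5 measured B cell markers, Cd79a, Cd79b, Ms4a1, Cd22 and Pax5, averaged 11.71 to 11.94 in unstimulated wild type and 11.76 to 11.86 in unstimulated transgenic arrays, and 10.65 to 10.97 over both stimulated groups. Kcnip3, which encodes DREAM, read at its brighter probe set 6.75, 6.71 and 7.19 in unstimulated wild type and 7.00, 7.07 and 7.28 in unstimulated transgenic arrays (change 0.23 ± 0.12, adjusted p = 0.279). After stimulation it read 6.67, 6.56 and 6.58 in wild type and 6.78, 6.53 and 6.59 in transgenic arrays (0.030 ± 0.12, adjusted p = 0.976). The sources used here do not say whether the probe set detects RNA of the transgene, so it is no check of the genotype labels.

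The first question was how B cells of each genotype changed with stimulation. In wild type cells 28 of the 33 measured genes rose and 5 fell, and in transgenic cells 27 rose and 5 fell. Rrm2, the small subunit of ribonucleotide reductase made in S phase, rose most in both genotypes. The genes that fell were the same 5 in both: Tk2 and Rrm2b, which serve deoxynucleotide supply outside S phase, the deoxynucleotide hydrolase Samhd1, and the CTP and PRPP synthetase genes Ctps2 and Prps2. Among all 18193 genes, 36% were called higher and 24% lower in wild type cells, and 35.2% higher and 23.3% lower in transgenic cells. The listed genes changed by a median of 1.57 in wild type cells and 1.30 in transgenic cells, beside 0.080 and 0.083 over all genes. The order of these 2 medians rests on the scaling: they were 1.480 and 1.497 on the deposited values, and 2.10 and 2.13 after subtracting array medians.

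A rise of more than 2-fold was called for 21 of the 33 genes in each genotype, where 9.95% of all genes in wild type and 9.37% in transgenic cells rose that far. A fall of more than 2-fold was called for 2 genes in each genotype, where 7.36% and 7.29% of all genes fell that far. Of the 81 probe sets, 61 were called higher and 13 lower in wild type cells and 60 and 12 in transgenic cells, where 56.8% and 55.2% of all probe sets were called in either direction. The split over all probe sets depends on the scaling: in wild type cells 13813 were called higher and 11748 lower after quantile normalization, 6363 and 29192 on the deposited values, and 21404 and 8802 after subtracting array medians. In transgenic cells these counts were 13556 and 11284, 6181 and 29226, and 22092 and 8164. The listed genes split 28 to 5 in wild type and 27 to 5 in transgenic cells on the deposited values, and 29 to 3 and 30 to 2 after subtracting array medians. The median over all genes was −0.36 in both genotypes on the deposited values, and 0.26 and 0.27 after subtracting array medians.

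Markers of cell types moved with stimulation as well. In transgenic cells all 8 granulocyte, all 8 macrophage and all 6 measured erythroid markers were called lower on day 2, with medians of −3.78, −2.44 and −2.64. In wild type cells 4, 5 and 3 of them were called lower, with medians of −0.76, −0.58 and −0.40, and 1 erythroid marker higher. Of the 7 T and NK cell markers 3 were lower and 1 higher in wild type cells and 4 were lower in transgenic cells. Of the 5 plasma cell markers 3 were lower and 2 higher in each genotype. Of the 5 B cell markers 4 were called lower in each genotype, with medians of −1.17 and −1.11. The part of a changed cell mixture in the changes of the listed genes was not tested.

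**Figure D1:**
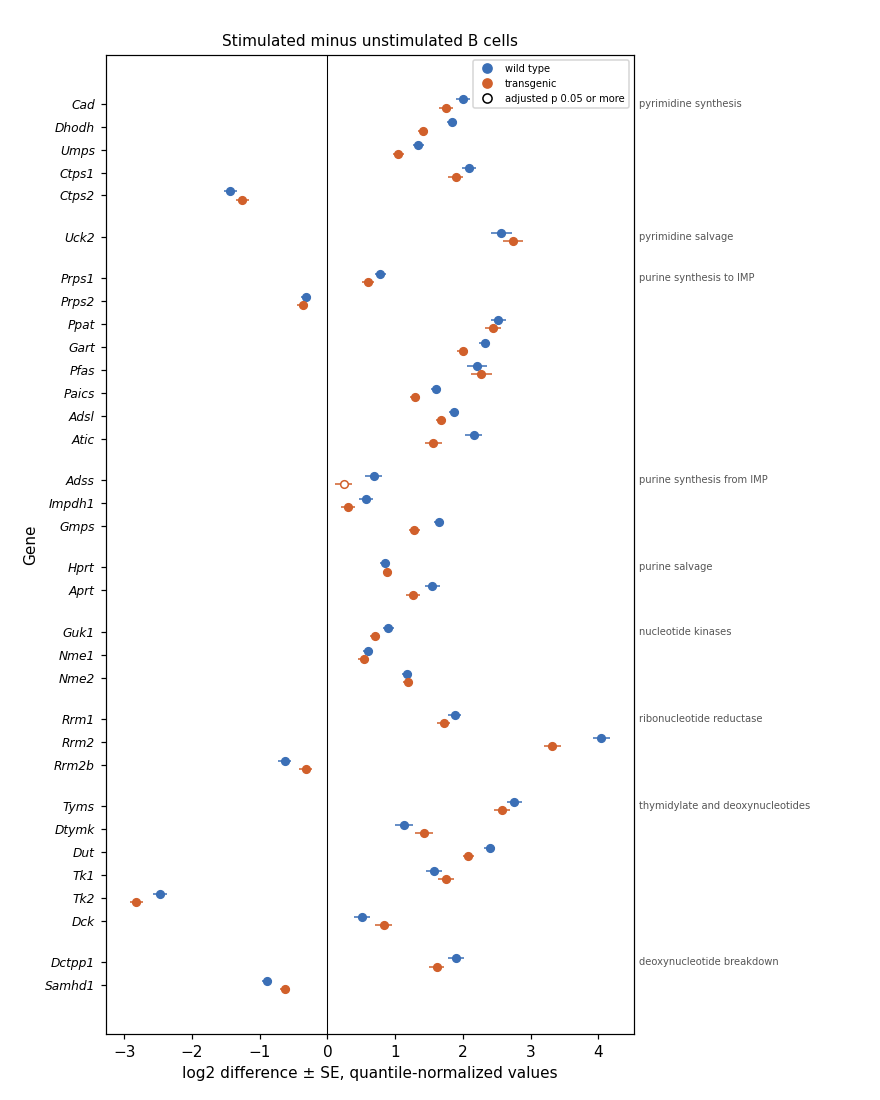
Log2 difference between stimulated and unstimulated B cells with its SE (n = 3 arrays per group) for the 33 measured genes, ordered by role, with wild type in blue and transgenic in orange; open circles have an adjusted p of 0.05 or more. Most points lie to the right of 0, Rrm2 is farthest right at 4.04 and 3.32, and Ctps2, Prps2, Rrm2b, Tk2 and Samhd1 lie to the left.

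In pyrimidine synthesis 4 of 5 genes rose in each genotype and Ctps2 fell. Cad, which carries out the opening steps of the pathway, rose by 2.00 ± 0.10 in wild type cells and 1.75 ± 0.10 in transgenic cells. Dhodh, the mitochondrial enzyme that makes orotate, rose by 1.84 ± 0.073 in wild type cells and 1.41 ± 0.073 in transgenic cells, and Umps, which turns orotate into UMP, by 1.34 ± 0.080 in wild type cells and 1.04 ± 0.080 in transgenic cells. The 2 CTP synthases, which make CTP from UTP, moved in opposite directions. Ctps1 read 8.55, 8.25 and 8.11 in unstimulated wild type cells, 8.48, 8.25 and 8.40 in unstimulated transgenic cells, 10.42, 10.39 and 10.37 in stimulated wild type cells and 10.33, 10.34 and 10.16 in stimulated transgenic cells. It rose 4.26-fold in wild type (2.09 ± 0.11, adjusted p = 3.11e-09) and 3.72-fold in transgenic cells (1.90 ± 0.11, adjusted p = 8.98e-09), with no overlap between the days. Ctps2 read 9.69, 9.47 and 9.52 in unstimulated wild type cells, 9.40, 9.32 and 9.45 in unstimulated transgenic cells, 8.25, 8.02 and 8.10 in stimulated wild type cells and 8.31, 8.10 and 7.98 in stimulated transgenic cells. Every stimulated array was below every unstimulated one, a fall of 2.71-fold in wild type (−1.44 ± 0.098, adjusted p = 4.68e-08) and 2.39-fold in transgenic cells (−1.26 ± 0.098, adjusted p = 1.86e-07).

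Uck2, the uridine-cytidine kinase that salvages pyrimidine nucleosides, rose in both genotypes. Its values were 7.66, 6.90 and 7.00 in unstimulated wild type cells, 6.82, 6.90 and 6.89 in unstimulated transgenic cells, 9.76, 9.65 and 9.86 in stimulated wild type cells and 9.67, 9.59 and 9.58 in stimulated transgenic cells. Replicate 1 of the unstimulated wild type group was the highest of the 6 unstimulated arrays, and the days did not overlap. The change was 2.57 ± 0.15 in wild type (5.93-fold, adjusted p = 1.14e-08) and 2.74 ± 0.15 in transgenic cells (6.68-fold, adjusted p = 7.12e-09).

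On the purine route to IMP 7 of 8 genes rose in each genotype. Ppat, which catalyses the committed step, read 7.05, 6.53 and 6.83 in unstimulated wild type cells, 6.70, 6.83 and 6.77 in unstimulated transgenic cells, 9.40, 9.28 and 9.31 in stimulated wild type cells and 9.18, 9.12 and 9.35 in stimulated transgenic cells. No stimulated array came near an unstimulated one, and the change was 2.52 ± 0.11 in wild type (5.75-fold, adjusted p = 9.76e-10) and 2.45 ± 0.11 in transgenic cells (5.45-fold, adjusted p = 1.5e-09). The next enzymes rose as well: Gart by 2.32 ± 0.083 in wild type cells and 2.00 ± 0.083 in transgenic cells, and Pfas by 2.21 ± 0.15 in wild type cells and 2.27 ± 0.15 in transgenic cells. Paics, which adds the carboxyl group and aspartate, rose by 1.61 ± 0.073 in wild type cells and 1.30 ± 0.073 in transgenic cells. Ppat and Paics are neighbours among coding genes and lie on opposite strands. Adsl, which releases fumarate in the purine route and again on the way to AMP, rose by 1.88 ± 0.075 in wild type cells and 1.68 ± 0.075 in transgenic cells. Atic, which closes the ring to IMP, rose by 2.16 ± 0.13 in wild type cells and 1.56 ± 0.13 in transgenic cells.

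The 2 PRPP synthetases, which make the sugar phosphate for both purines and pyrimidines, differed in direction. Prps1 read 9.32, 9.41 and 9.13 in unstimulated wild type cells, 9.18, 9.16 and 9.13 in unstimulated transgenic cells, 9.99, 10.02 and 10.19 in stimulated wild type cells and 9.78, 9.70 and 9.78 in stimulated transgenic cells, and its days did not overlap. It rose by 0.78 ± 0.084 in wild type cells and 0.60 ± 0.084 in transgenic cells (adjusted p = 3.71e-06 and 4.71e-05). Prps2 read 10.00, 9.95 and 9.82 in unstimulated wild type cells, 10.09, 9.94 and 9.97 in unstimulated transgenic cells, 9.62, 9.60 and 9.60 in stimulated wild type cells and 9.73, 9.63 and 9.54 in stimulated transgenic cells. Its brightest probe set fell by 0.32 in wild type (SE 0.078, adjusted p = 0.00333) and 0.37 in transgenic cells (SE 0.078, adjusted p = 0.0013). That direction was not stable: another Prps2 probe set, 1420637_at, changed by 1.08 ± 0.10 in wild type cells and 0.74 ± 0.10 in transgenic cells (adjusted p = 1.22e-06 and 4.46e-05), and subtracting array medians turned the brightest one to 0.38 in both genotypes.

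From IMP onward 3 genes were measured, and all 3 rose in wild type cells. Gmps, which completes GMP, changed most, from 9.21, 9.14 and 9.27 in unstimulated to 10.83, 10.80 and 10.94 in stimulated wild type cells, and from 9.27, 9.37 and 9.45 to 10.66, 10.71 and 10.57 in transgenic cells. These are rises of 1.65 ± 0.077 in wild type cells and 1.29 ± 0.077 in transgenic cells (adjusted p = 1.25e-09 and 1.46e-08), with no overlap of the days. Impdh1, one of the 2 IMP dehydrogenases that open the route to GMP, read 7.58, 7.64 and 7.84 in unstimulated wild type cells, 7.84, 7.60 and 7.95 in unstimulated transgenic cells, 8.27, 8.29 and 8.20 in stimulated wild type cells and 8.17, 8.15 and 7.97 in stimulated transgenic cells. Its rise was 0.56 ± 0.10 in wild type cells and 0.30 ± 0.10 in transgenic cells (adjusted p = 0.000381 and 0.0234). In transgenic cells the deposited values gave −0.023 for Impdh1, and the call was also lost without replicate 2 of the unstimulated or replicate 1 or 2 of the stimulated transgenic group (adjusted p = 0.114, 0.0796 and 0.0729). Adss, which starts the route to AMP, rose by 0.68 ± 0.12 in wild type cells (adjusted p = 0.000394). In transgenic cells its change was 0.24 ± 0.12 and did not pass the test (adjusted p = 0.116), with arrays at 9.59, 9.93 and 9.69 before and 9.71, 10.01 and 10.21 after stimulation. Adss was called higher there in 4 of 19 alternatives. These were the deposited values (0.37, adjusted p = 0.0177) and subtracting array medians (1.00, adjusted p = 1.69e-05). The others left out unstimulated transgenic replicate 2 (adjusted p = 0.0465) or stimulated transgenic replicate 1 (adjusted p = 0.0178).

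Both purine salvage genes rose. Aprt, which recovers adenine, read 9.87, 9.55 and 9.88 in unstimulated wild type cells, 9.78, 9.85 and 10.06 in unstimulated transgenic cells, 11.23, 11.29 and 11.44 in stimulated wild type cells and 11.20, 11.12 and 11.17 in stimulated transgenic cells, and its days did not overlap. The change was 1.55 ± 0.10 in wild type cells and 1.27 ± 0.10 in transgenic cells (adjusted p = 4.06e-08 and 3.13e-07). Hprt, which recovers hypoxanthine and guanine, rose by 0.85 ± 0.071 in wild type cells and 0.89 ± 0.071 in transgenic cells (adjusted p = 3.21e-07 and 2.41e-07).

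The 3 nucleotide kinases rose in both genotypes. Guk1, which phosphorylates GMP, rose by 0.90 ± 0.079 in wild type cells and 0.70 ± 0.079 in transgenic cells. Nme1 and Nme2, nucleoside diphosphate kinases that make triphosphates, are neighbouring genes on the same strand. Nme2 read 12.02, 11.97 and 11.97 in unstimulated wild type cells, 12.08, 11.97 and 12.06 in unstimulated transgenic cells, 13.18, 13.16 and 13.15 in stimulated wild type cells and 13.27, 13.29 and 13.11 in stimulated transgenic cells. Stimulated arrays were all above unstimulated ones, by 1.17 ± 0.071 in wild type cells and 1.18 ± 0.071 in transgenic cells (adjusted p = 1.54e-08 and 1.59e-08). Nme1 read 10.63, 10.40 and 10.56 in unstimulated wild type cells, 10.66, 10.56 and 10.71 in unstimulated transgenic cells, 11.11, 11.18 and 11.10 in stimulated wild type cells and 11.16, 11.26 and 11.11 in stimulated transgenic cells. Its brightest probe set rose by 0.60 ± 0.080 in wild type cells and 0.53 ± 0.080 in transgenic cells, and its other probe set by 1.84 ± 0.095 and 1.97 ± 0.095, so the size of the Nme1 change depends on the probe set.

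Ribonucleotide reductase pairs the large subunit Rrm1 with either small subunit, Rrm2 in dividing cells or Rrm2b, a p53 target that serves cells outside S phase. Rrm2 read 8.23, 7.76 and 7.69 in unstimulated wild type cells, 8.55, 8.48 and 8.79 in unstimulated transgenic cells, 11.97, 11.89 and 11.96 in stimulated wild type cells and 11.91, 11.92 and 11.96 in stimulated transgenic cells. The stimulated arrays lay within a narrow band in both genotypes, while the unstimulated ones were lower in wild type than in transgenic cells. Rrm2 rose 16.5-fold in wild type (4.04 ± 0.13, adjusted p = 4e-11) and 9.98-fold in transgenic cells (3.32 ± 0.13, adjusted p = 2.38e-10). Without replicate 1 of the unstimulated wild type group the wild type change was 4.21. Rrm2b read 8.29, 8.44 and 8.16 in unstimulated wild type cells, 7.96, 7.91 and 7.89 in unstimulated transgenic cells, 7.84, 7.64 and 7.50 in stimulated wild type cells and 7.66, 7.57 and 7.56 in stimulated transgenic cells. It fell in both genotypes, by 0.63 in wild type (SE 0.096, adjusted p = 8.45e-05) and 0.32 in transgenic cells (SE 0.096, adjusted p = 0.0117), though the transgenic fall was −0.060 after subtracting array medians (adjusted p = 0.639). Rrm1 rose by 1.88 ± 0.097 in wild type cells and 1.71 ± 0.097 in transgenic cells, with unstimulated arrays between 8.66 and 9.09 and stimulated arrays between 10.73 and 10.86.

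**Figure D2:**
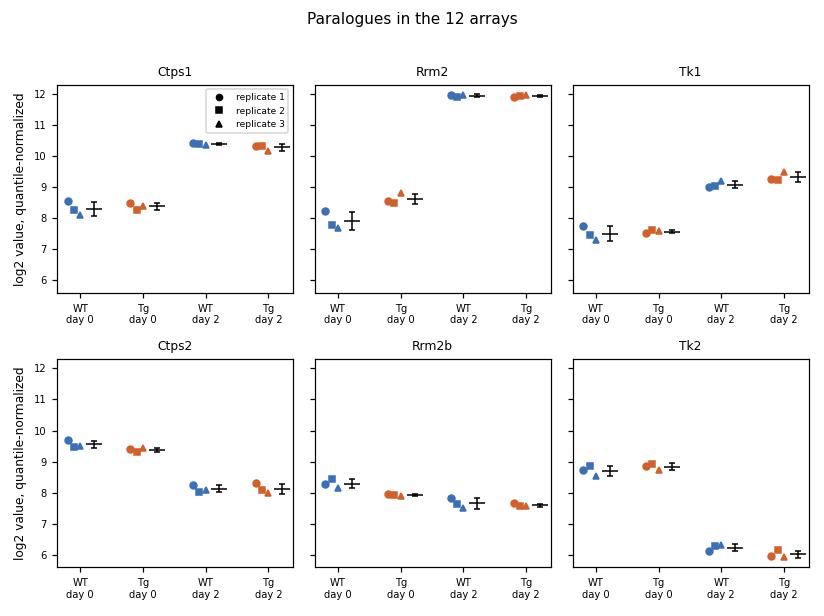
Quantile-normalized log2 values on the 12 arrays for 3 pairs of paralogues (Ctps1 and Ctps2, Rrm2 and Rrm2b, Tk1 and Tk2), with 1 marker shape per replicate number and a black bar for the group mean with its SD. In each column the upper gene is higher and the lower gene is lower after stimulation in both genotypes; levels of different genes are not comparable.

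Of the genes that supply thymidylate and other deoxynucleotides, 5 of 6 rose in both genotypes. Tyms, thymidylate synthase, read 4.37, 4.25 and 4.36 in unstimulated wild type cells, 4.30, 4.34 and 4.28 in unstimulated transgenic cells, 6.79, 7.23 and 7.25 in stimulated wild type cells and 6.95, 6.94 and 6.77 in stimulated transgenic cells. Its own probe set was below the array median in every unstimulated array, so its rise of 2.76 ± 0.11 in wild type cells and 2.58 ± 0.11 in transgenic cells starts from a dim reading. A brighter probe set, 1424991_s_at, which is also annotated to the pseudogene Tyms-ps, rose by 3.77 ± 0.13 and 3.06 ± 0.13. Dut, which breaks down dUTP and yields the precursor of thymidylate, rose by 2.40 ± 0.082 in wild type cells and 2.08 ± 0.082 in transgenic cells, and Dtymk, thymidylate kinase, by 1.13 ± 0.13 in wild type cells and 1.42 ± 0.13 in transgenic cells. Dck, the deoxycytidine kinase of salvage, rose by 0.51 ± 0.12 in wild type cells and 0.83 ± 0.12 in transgenic cells (adjusted p = 0.0034 and 8.03e-05).

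The 2 thymidine kinases moved in opposite directions. Tk1, the cytosolic enzyme of S phase, read 7.75, 7.47 and 7.29 in unstimulated wild type cells, 7.50, 7.63 and 7.57 in unstimulated transgenic cells, 9.0, 9.03 and 9.20 in stimulated wild type cells and 9.25, 9.22 and 9.49 in stimulated transgenic cells. It rose by 1.57 ± 0.12 in wild type cells and 1.75 ± 0.12 in transgenic cells (adjusted p = 9.16e-08 and 3.56e-08), with no overlap. Tk2, the mitochondrial enzyme, read 8.74, 8.85 and 8.53 in unstimulated wild type cells, 8.85, 8.93 and 8.72 in unstimulated transgenic cells, 6.11, 6.27 and 6.32 in stimulated wild type cells and 5.97, 6.14 and 5.92 in stimulated transgenic cells. This was the deepest fall of the list, 5.56-fold in wild type (−2.48 ± 0.10, adjusted p = 3.84e-10) and 7.07-fold in transgenic cells (−2.82 ± 0.10, adjusted p = 1.56e-10).

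The pair that breaks down deoxynucleotide triphosphates also split. Dctpp1, which hydrolyses dCTP and modified cytosine nucleotides, read 7.88, 7.89 and 8.26 in unstimulated wild type cells, 8.10, 8.21 and 8.35 in unstimulated transgenic cells, 9.94, 9.82 and 9.97 in stimulated wild type cells and 9.78, 9.73 and 9.99 in stimulated transgenic cells, and rose by 1.90 ± 0.11 in wild type cells and 1.61 ± 0.11 in transgenic cells (adjusted p = 1.34e-08 and 7.01e-08). Samhd1, which lowers deoxynucleotide pools in non-dividing cells, read 11.13, 11.02 and 11.01 in unstimulated wild type cells, 11.00, 11.01 and 10.98 in unstimulated transgenic cells, 10.09, 10.17 and 10.22 in stimulated wild type cells and 10.41, 10.43 and 10.26 in stimulated transgenic cells. Its change was −0.90 ± 0.073 in wild type cells and −0.63 ± 0.073 in transgenic cells (adjusted p = 2.47e-07 and 7.85e-06), with stimulated arrays below unstimulated ones. The Samhd1 direction rests on the scaling: after subtracting array medians it was −0.040 in wild type cells and 0.24 in transgenic cells. Its probe sets differed as well. Of 5, 3 were called lower in wild type and 2 in transgenic cells, and 0 higher. Their changes ran from −0.95 to −0.14 in wild type cells and from −0.88 to 0.32 in transgenic cells.

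Where a gene had several probe sets, they could differ. Of the 22 genes with more than 1 probe set, 19 had none called against the brightest in wild type stimulation, and 3 (Tyms, Gmps and Prps2) had probe sets called in both directions. In transgenic cells Ppat joined them.

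Genes that feed or border these pathways were counted on the same values. Of 8 listed genes of one-carbon folate supply 6 were measured, and all 6 rose in both genotypes, with medians of 2.24 and 1.76. Mthfd2, the mitochondrial folate dehydrogenase, rose by 2.73 ± 0.093 in wild type cells and 2.48 ± 0.093 in transgenic cells, and Shmt2, the mitochondrial serine hydroxymethyltransferase, by 2.69 ± 0.098 in wild type cells and 2.31 ± 0.098 in transgenic cells. Of 40 measured genes of wider salvage, breakdown and transport, 20 rose and 5 fell in wild type cells and 21 rose and 7 fell in transgenic cells, with medians of 0.23 and 0.32. Adenosine kinase, Adk, rose by 2.91 ± 0.12 in wild type cells and 1.99 ± 0.12 in transgenic cells, and the AMP deaminase Ampd3 changed by −2.65 ± 0.11 in wild type cells and −3.09 ± 0.11 in transgenic cells. All 10 S phase marks rose in both genotypes, with medians of 2.23 and 2.02.

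The second question was how transgenic and wild type cells differed before stimulation. Rrm2 was higher in transgenic cells and Rrm2b lower, and the other 31 measured genes did not pass the test. Among all genes 5.45% were called higher and 4.9% lower, so 1 and 1 of 33 does not exceed the background in either direction. The median difference was 0.033, beside 0.013 over all genes. With quantile normalization the counts were 3 higher (Rrm2, Atic and Paics) and 1 lower. An unadjusted p under 0.05 was reached by 6 of the 33 genes, where 25.3% of all genes reached it.

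Rrm2 read 8.42, 7.97 and 7.85 in wild type and 8.61, 8.58 and 8.79 in transgenic unstimulated cells on the deposited scale. Every transgenic array was above every wild type array, and the difference was 0.58 ± 0.12 (1.49-fold, adjusted p = 0.0102). Without replicate 1 of the wild type group, the array with the low 5′ signal, it was 0.75 (adjusted p = 0.000191). Without replicate 3 of the transgenic group it was 0.52 and lost the call (adjusted p = 0.0545). A separate Rrm2 probe set, 1416120_at, read 6.80, 6.96 and 6.89 in wild type and 7.40, 7.83 and 7.65 in transgenic cells, again without overlap (0.74 ± 0.12, adjusted p = 0.00213). The remaining Rrm2 probe set, 1448226_at, did not pass the test (0.15 ± 0.16, adjusted p = 0.604), and its groups overlapped at 7.51, 7.20 and 7.04 in wild type against 7.23, 7.49 and 7.49 in transgenic cells.

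Rrm2b read 8.47, 8.57 and 8.26 in wild type and 8.10, 8.09 and 8.02 in transgenic cells, with every transgenic array lower. The difference was −0.36 ± 0.10 (1.29-fold, adjusted p = 0.0415). It lay close to the threshold and lost the call in 11 of 19 alternatives. These included leaving out each unstimulated array but wild type replicate 3 (adjusted p = 0.0867 to 0.14). They also included leaving out stimulated wild type replicate 2 or any of the 3 stimulated transgenic arrays, which enter only the spread (adjusted p = 0.0516 to 0.0608). None of the other 3 Rrm2b probe sets was called: 1437221_at differed by −0.40 ± 0.15, 1437222_x_at by −0.42 ± 0.14 and 1437476_at by 0.29 ± 0.25. The mean of the 4 Rrm2b probe sets differed by −0.23 (adjusted p = 0.288). For Rrm1 the brightest probe set differed by 0.067 ± 0.10 (adjusted p = 0.756). Another, 1448127_at, read 6.04, 8.06 and 7.78 in wild type and 8.42, 8.69 and 8.52 in transgenic cells, with wild type replicate 1 far below the rest (1.25 ± 0.37, adjusted p = 0.0513). Without that array the difference of this Rrm1 probe set was 0.62 (adjusted p = 0.00856), without wild type replicate 2 it was 1.63 (adjusted p = 0.0172), and without wild type replicate 3 it was 1.49 (adjusted p = 0.0255). When a transgenic array was left out instead, it was 1.18 to 1.31 and was not called (adjusted p = 0.103 to 0.133).

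Atic read 9.37, 9.25 and 8.93 in wild type and 9.63, 9.60 and 9.62 in transgenic cells. The groups did not overlap, and the difference of 0.43 ± 0.13 missed the threshold (adjusted p = 0.0625). Without wild type replicate 1 it was 0.53 (adjusted p = 0.042). Another Atic probe set, 1452811_at, read 5.17, 6.43 and 6.56 in wild type against 7.12, 7.26 and 7.05 in transgenic cells. It differed by 1.09 and was not called. Without wild type replicate 1 it differed by 0.65 (adjusted p = 0.263), and without wild type replicate 3 by 1.34 (adjusted p = 0.0351). Atic was called higher in 6 of 19 alternatives, among them the mean of its probe sets (0.76, adjusted p = 0.0264). Paics, its pathway partner, differed by 0.20 ± 0.074 (adjusted p = 0.116), and with quantile normalization by 0.26 (adjusted p = 0.04). At the brightest probe set, 8 genes were higher on every transgenic than on every wild type array, where 13.2% of all genes were. They were Dhodh, Umps, Rrm2, Dut, Paics, Adss, Atic and Nme2. The reverse held for 2 genes, Ctps2 and Rrm2b, where 12.2% of all genes were lower on every transgenic array. Other probe sets could differ. For Umps, 1434859_at read 7.47, 7.60 and 7.24 in wild type against 7.13, 7.14 and 7.22 in transgenic cells, the reverse without overlap. For Dhodh, 1417581_at differed by −0.077. The other probe sets of Rrm2, Dut, Paics and Atic also differed upward.

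Counting all 81 probe sets, 4 were called higher and 2 lower in unstimulated transgenic cells, where 9.45% of all probe sets were called. The count rests on single arrays: without wild type replicate 3 it was 8 higher and 9 lower, and without transgenic replicate 3 it was 1 and 1. Without transgenic replicate 2 it was 3 and 0. Besides the probe sets of Rrm2 and Rrm2b, those called with all arrays were 3. The probe set 1424991_s_at, shared by Tyms and its pseudogene, read 6.29, 5.99 and 6.49 in wild type and 6.81, 6.63 and 7.02 in transgenic cells (0.56 ± 0.13, adjusted p = 0.0199). For Gart, 1424435_a_at read 6.99, 7.31 and 7.13 in wild type against 7.52, 7.63 and 7.54 in transgenic cells (0.42 ± 0.099, adjusted p = 0.0189), while the brightest Gart probe set differed by 0.13 ± 0.088 (adjusted p = 0.397). For Samhd1, 1444064_at read 7.70, 7.31 and 7.51 in wild type against 6.96, 6.73 and 6.97 in transgenic cells (−0.62 ± 0.15, adjusted p = 0.0186), while the brightest Samhd1 probe set differed by −0.060 ± 0.075 (adjusted p = 0.689). Each of these 3 lost its call when certain single arrays were left out. For Tyms the adjusted p was 0.0716 without wild type replicate 2, 0.0587 without transgenic replicate 1 and 0.0967 without transgenic replicate 3, and it stayed under the threshold without wild type replicate 1 (0.039). For Gart it was 0.0649 without wild type replicate 1, 0.0664 without transgenic replicate 2 and 0.0575 without transgenic replicate 3. For Samhd1 it was 0.0641 without wild type replicate 1 and 0.071 without transgenic replicate 2.

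Markers of other cells moved with genotype on day 0. All 8 granulocyte markers were higher in unstimulated transgenic cells, with array means of 6.13 to 6.41 in wild type and 9.66 to 10.17 in transgenic arrays. All 8 macrophage markers were higher as well (7.20 to 7.51 against 8.74 to 9.14), as were all 6 measured erythroid markers (5.85 to 6.59 against 7.74 to 8.36), 3 of 7 T and NK cell markers (6.45 to 6.79 against 7.20 to 7.36) and 3 of 5 plasma cell markers (9.88 to 10.12 against 10.39 to 10.44). None of the 5 B cell markers was called. In wild type arrays the group mean of 5 of the 8 granulocyte, 6 of the 8 macrophage and 4 of the 6 erythroid markers was above the array median, and in transgenic arrays all were. The part of these cells in the differences of Rrm2, Rrm2b and the probe sets above was not tested. In such bulk RNA, fewer cells of a type and less RNA per cell cannot be told apart. Of the 10 S phase marks Mcm6 was called higher in unstimulated transgenic cells (0.32 ± 0.081, adjusted p = 0.0288).

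**Figure D3:**
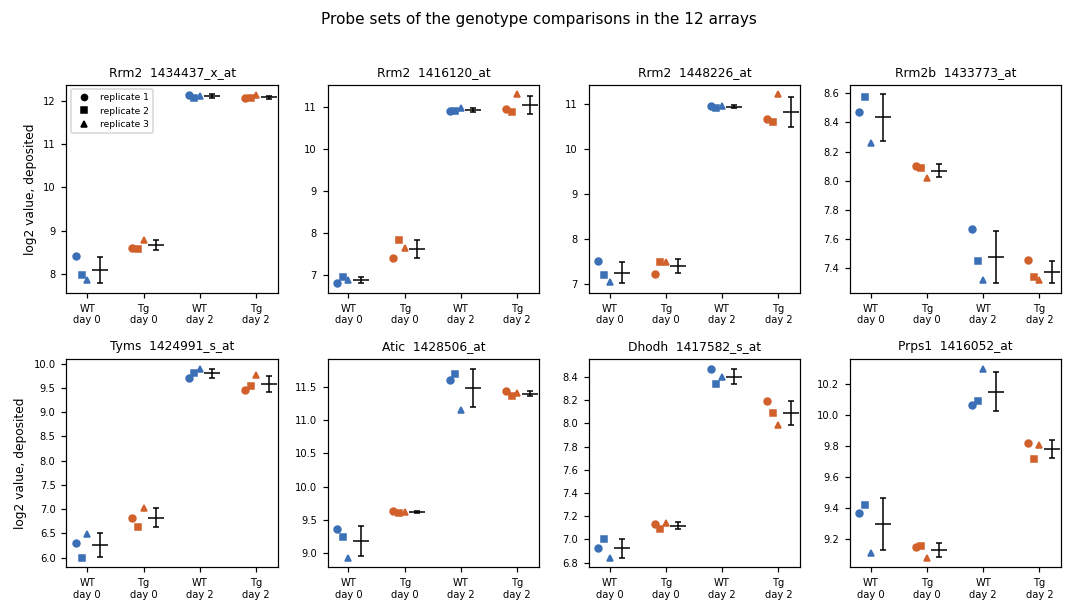
Deposited log2 values on the 12 arrays for 8 probe sets, titled by gene and probe set, with 1 marker shape per replicate number and a black bar for the group mean with its SD; each panel has its own axis. On day 0 the transgenic arrays lie above the wild type arrays for 2 of 3 Rrm2 probe sets, Tyms 1424991_s_at, Atic and Dhodh and below them for Rrm2b, and on day 2 they lie below for Dhodh and Prps1.

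After stimulation none of the 33 genes passed the test between the genotypes by limma, and 9 had an unadjusted p under 0.05 (8 lower and 1 higher in transgenic cells), where 13.2% of all genes did. Over all genes 1.24% were called higher and 1.1% lower, and over all probe sets 1.86% were called. The smallest adjusted p was that of Dhodh, which read 8.47, 8.34 and 8.40 in wild type and 8.19, 8.09 and 7.99 in transgenic cells without overlap (−0.31 ± 0.077, adjusted p = 0.0638). Prps1 read 10.07, 10.09 and 10.30 in wild type against 9.82, 9.72 and 9.81 in transgenic cells, also without overlap (−0.37 ± 0.094, adjusted p = 0.0733). Without replicate 3 of the unstimulated wild type group, which enters only the estimate of the spread, Prps1 passed (adjusted p = 0.0319).

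The stimulated differences were small and leaned to one side. Of the 33 genes 26 were below 0 and 6 above, with a median of −0.13, beside 0 over all genes. With quantile normalization 25 were below 0 (median −0.10), and after subtracting array medians 27 (median −0.15). Over all 81 probe sets of these genes the lean was smaller. On the deposited values 25 of the 81 were above 0, with a median of −0.053, beside 0.0067 over all probe sets. The mean over the 33 genes was 9.93 to 9.97 on the stimulated wild type arrays and 9.84 to 9.85 on the stimulated transgenic arrays. Of the related lists, S phase marks and folate supply genes leaned the same way, with none called. Above 0 were 1 of 10 S phase marks (median −0.10) and 0 of 6 folate supply genes (median −0.16). The genes of wider salvage, breakdown and transport did not share the lean: 18 of 40 were above 0 (median −0.013), with 1 called higher. Without stimulated wild type replicate 1, the array with the low actin 5′ signal, 24 of the 33 genes were below 0 and 8 above, with a median of −0.097. On unstimulated arrays the mean over the 33 genes was 8.62 to 8.85 in wild type and 8.74 to 8.77 in transgenic cells. At the brightest probe set, every transgenic array was below every wild type array for 13 genes, where 12.2% of all genes were. They were Cad, Dhodh, Ctps1, Dut, Gart, Pfas, Adsl, Impdh1, Gmps, Hprt, Aprt, Prps1 and Guk1. It was above for 2, Nme2 and Samhd1, where 9.76% of all genes were. Other probe sets could differ. For Dut, 1419269_at read 6.72, 6.66 and 6.68 in wild type against 7.10, 6.96 and 7.04 in transgenic cells, the reverse without overlap. The other probe sets of Aprt (0.053) and Prps1 (−0.033) overlapped. Dhodh 1417581_at and Cad 1452829_at were also lower without overlap. Granulocyte markers were called higher in 3 of 8 cases in stimulated transgenic cells, macrophage markers in 2 of 8 and plasma cell markers in 2 of 5, with none of the 6 erythroid or 7 T and NK cell markers called. Their part in this lean was not tested.

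**Figure D4:**
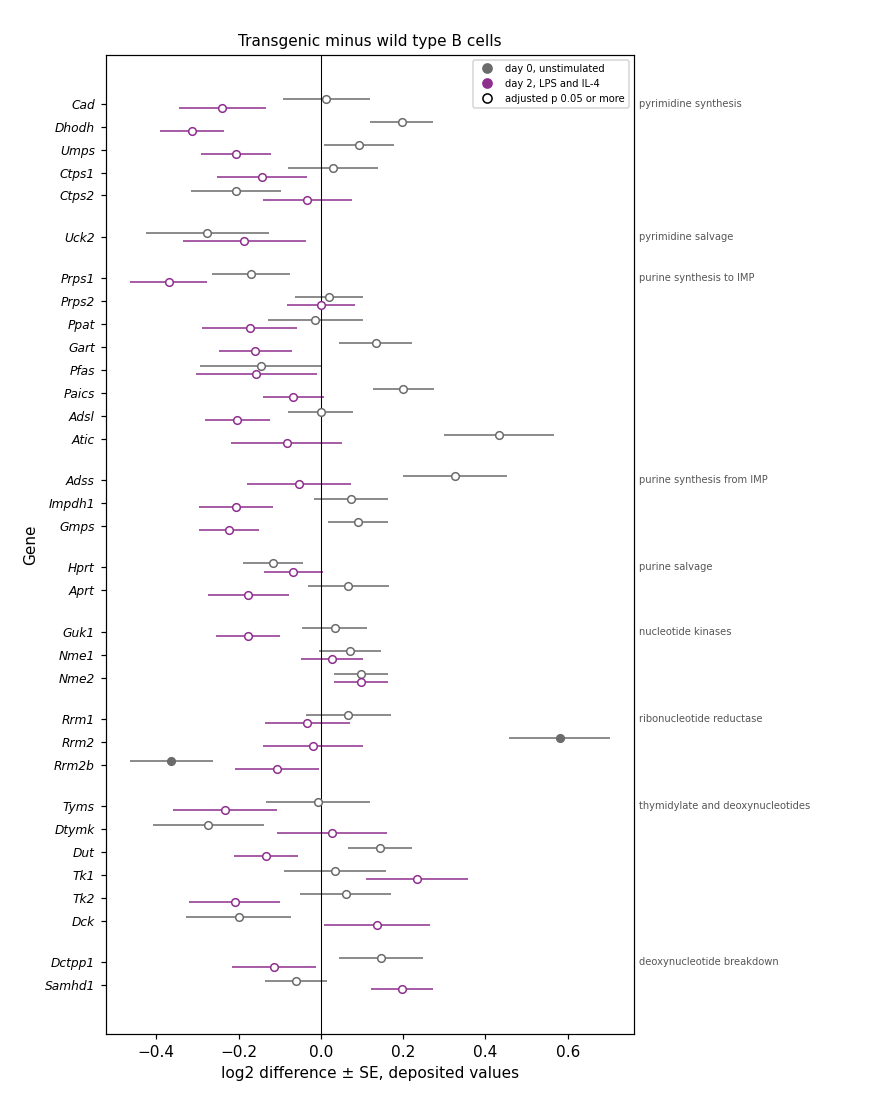
Log2 difference between transgenic and wild type B cells with its SE (n = 3 arrays per group) for the 33 measured genes on day 0 (grey) and day 2 (purple); filled circles have an adjusted p under 0.05. The filled circles are Rrm2 at 0.58 and Rrm2b at −0.36 on day 0, and on day 2 26 of the 33 points lie below 0 with none filled.

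The third question was whether the genotype difference changed with stimulation, tested as the interaction term on the deposited values. Dhodh was the 1 gene called: it was 0.20 ± 0.077 on day 0 (adjusted p = 0.134), with arrays at 6.93, 7.00 and 6.84 in wild type and 7.13, 7.09 and 7.14 in transgenic cells, and −0.31 ± 0.077 on day 2. The difference between the days was −0.51 ± 0.11 (adjusted p = 0.0361). It was −0.43 with quantile normalization (adjusted p = 0.0597) and −0.34 over the mean of both Dhodh probe sets (adjusted p = 0.235). Leaving out any 1 of 8 arrays, each unstimulated transgenic, each stimulated wild type and replicates 2 and 3 of the stimulated transgenic group, also lost the call (adjusted p = 0.0641 to 0.0939). Over all genes 0.588% were called with a positive and 1.39% with a negative interaction, and over all probe sets 1.58%.

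Rrm2 had an interaction of −0.60 ± 0.17 (adjusted p = 0.125), and of −0.77 (adjusted p = 0.0044) without replicate 1 of the unstimulated wild type group. On day 2 Rrm2 read 12.15, 12.06 and 12.12 in wild type and 12.06, 12.08 and 12.13 in transgenic cells, a difference of −0.020 ± 0.12. Of the 33 genes 24 had a negative and 8 a positive interaction, with a median of −0.20 beside −0.010 over all genes, and 10 had an unadjusted p under 0.05, where 15% of all genes did. The stimulation and genotype comparisons and the interaction share the same arrays, so these counts are not separate evidence.

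Among the related genes, none of the 6 measured folate genes was called between the genotypes on either day. Of the 40 genes of wider salvage, breakdown and transport, 4 were higher and 1 lower in unstimulated transgenic cells. The guanine deaminase Gda was higher by 1.65 ± 0.17 (adjusted p = 7.29e-05), the adenylosuccinate synthase of muscle, Adssl1, by 1.20 ± 0.12 (adjusted p = 4.05e-05), Adk by 0.63 ± 0.11 (adjusted p = 0.00386) and the purine nucleoside phosphorylase Pnp by 0.57 ± 0.091 (adjusted p = 0.00197). Adenosine deaminase, Ada, was lower (−0.47 ± 0.094, adjusted p = 0.00798). After stimulation the uridine phosphorylase Upp1 was called higher in transgenic cells (0.69 ± 0.12, adjusted p = 0.011).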

How the data were processed

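Transcripts of 12 samples were measured on single-channel Affymetrix mouse arrays from 4 µg of total RNA. The deposited values are log2 probe set levels; the submitters' processing notes name RMA and affy, without a version. The sources used here do not say whether both days were normalized together. The table holds 45101 probe sets, of which 64 array controls were dropped. Gene symbols came from the platform annotation: 34945 probe sets had 1 symbol, 932 several and 9160 none, and 18193 genes had a probe set of their own.

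The model, fitted in limma 3.58.1 (R 4.3.3), had a coefficient for each group over the 12 arrays, no block, a 2-sided moderated test and Benjamini-Hochberg adjustment. Genotype and interaction used the deposited values, stimulation the quantile-normalized values. The procedure was tested on simulated data. All listed genes may be named; values by array are given for the largest wild type stimulation change in each role, genes called by genotype, pairs of paralogues, and, chosen after their values were seen, other genes near a call. The genes, lists and rules were chosen with earlier results of these data known.

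Deviations of same-numbered replicates from their group means correlated at 0.33, 0.10 and 0.18 between the stimulated genotypes and at 0.32, 0.18 and 0.19 between the wild type days. This is a hint of pairing from the data, and the labels name none. Between the unstimulated genotypes they correlated at 0.078, 0.070 and 0.30, and between the transgenic days at 0.069, −0.16 and 0.12. Different numbers reached 0.11 and 0.16 in these comparisons, so pairing is unclear there. Alternatives covered scaling, the replicate block, a filter on dim probe sets, the prior, the samples fitted, the mean of a gene's probe sets and leaving out each array.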

Additional observations from a re-analysis of the deposited data

Results flagged for a closer look

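The interaction term was called, so that the difference between transgenic and wild type cells differed between day 0 and day 2, for Dhodh among the 33 genes and for 3 of the related salvage genes. For Dhodh the day 2 minus day 0 difference was −0.51 (SE 0.11, adjusted p = 0.0361). Ada, adenosine deaminase, had 0.62 (adjusted p = 0.0381), from −0.47 ± 0.094 on day 0 to 0.15 ± 0.094 on day 2. Adk, adenosine kinase, had −0.81 (adjusted p = 0.0224), from 0.63 ± 0.11 to −0.19 ± 0.11. Gda, guanine deaminase, had −1.59 (adjusted p = 0.00556), from 1.65 ± 0.17 to 0.063 ± 0.17. The levels of Gda were 7.13 ± 0.25 (SD, n = 3) in wild type and 8.78 ± 0.40 in transgenic cells on day 0, and 4.86 ± 0.13 and 4.92 ± 0.079 on day 2. Markers of granulocytes, macrophages and erythroid cells were higher in the same unstimulated transgenic arrays, and their part in these differences was not tested. Groups of 3 arrays are too small for a test of single outlying arrays.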

How the results depend on the processing

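Of 68 called results of the listed genes, set against 1289 alternatives in all, 1253 kept direction and call, 30 lost the call and 6 changed direction. Most called results were of stimulation, 33 in wild type and 32 in transgenic cells. Many alternatives, such as leaving out an array outside the contrast, cannot move the estimate, so the total is no measure of stability. The genotype calls of Rrm2 and Rrm2b were lost in 2 and 11 of 19 alternatives, and the Dhodh interaction in 12 of 18. Of 97 results not called, 17 of 1808 alternatives gave a call. The changes of direction were Prps2 with stimulation (0.38 in wild type and 0.38 in transgenic cells after subtracting array medians, 0.33 and 0.096 over the mean of its probe sets), Impdh1 in transgenic cells (−0.023 on the deposited values) and Samhd1 in transgenic cells (0.24 after subtracting array medians). The alternatives that changed a direction move the centre of all genes or average over probe sets, and the cause was not tested further.

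Genes called between unstimulated genotypes numbered 4 with quantile normalization, 0 when only the 2 groups compared were fitted, and 0 (without transgenic day 0 replicate 3) to 4 (without wild type day 0 replicate 3) when an array was left out. Probe sets called numbered 1908 with only those 2 groups and 2174 to 7518 when an array was left out (without the same 2 arrays). Between stimulated genotypes 1 gene was called among probe sets above the mean array median (Dhodh, adjusted p = 0.0493). Under the mean of probe sets 1 gene was called (Prps1, adjusted p = 0.0322). For Prps1 this value was −0.37, that of its brightest probe set alone, so its other probe set (−0.033) did not enter it. When an array was left out, 0 to 1 genes were called, with 452 to 1272 probe sets. With stimulation 15962 probe sets were called in wild type and 15667 in transgenic cells among those above the mean array median, where fewer were tested. Leaving out an array gave 23263 to 25448 and 22439 to 26127 probe sets, with 33 genes and 31 to 32 genes. The interaction called 0 genes with quantile normalization, 0 after subtracting array medians, 0 with a trended robust prior and 0 over the mean of probe sets. It called 0 to 2 genes and 388 to 1418 probe sets when an array was left out.

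The replicate block left the calls of the listed genes at 0 between stimulated genotypes (1000 probe sets in all) and 33 with wild type stimulation (25766). For the other comparisons, where pairing is unclear, the block gave 3 genes between unstimulated genotypes (Atic added, adjusted p = 0.0336, with 4966 probe sets). It gave 32 with transgenic stimulation (25116) and 1 for the interaction (767). Probe sets below the array median, such as that of Tyms on day 0, limit how far a change can be read.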
